A study of Mus musculus with 2 samples.

Results

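Microglia and macrophages of the ventral hippocampus (vHPC) were taken as the cells that the authors had placed in the clusters Microglia_1, Microglia_2 and Macrophages. They numbered 649 of 8477 cells, with 494 cells in Microglia_1, 107 in Microglia_2 and 48 in Macrophages. The cells came from adult male mice of a C57BL/6J x C57BL/6N background, aged 11 to 12 weeks, which carried either the valine (WT, ADCY2-V151) or, in homozygous form, the leucine (L151, ADCY2-L151) variant of adenylyl cyclase 2, a membrane-bound enzyme that makes cAMP. The leucine was introduced into the germ line with CRISPR/Cas9 and was thus not restricted to any cell type, and no treatment is named for these animals. The question was whether the L151 variant goes along with a change in these cells.

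Microglia are the resident immune cells of the brain parenchyma. They arise from yolk sac progenitors, renew themselves locally, survey their surroundings with motile processes and remove debris and synapses. The purinergic receptor P2ry12, the membrane protein Tmem119 and the fractalkine receptor Cx3cr1 are their usual markers. Macrophages of the brain sit at its borders, along vessels, in the meninges and in the choroid plexus, and are usually recognized by the mannose receptor Mrc1. The deposited table holds values per cell and not per gene, so that the cluster names were taken as deposited and these markers were not checked here.

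Each cell has its number of unique molecular identifiers (UMIs, each standing for 1 captured RNA molecule), the number of its genes detected by 1 UMI or more, the part of its UMIs that came from mitochondrial genes in percent, and a doublet score. There was 1 library per genotype, with 4055 cells and 22049587 UMIs for WT and 4422 cells and 22276085 UMIs for L151. Differences between genotypes are therefore differences between 2 libraries, the spread between mice is unknown, and no test was made. Of the barcodes, 3 occurred in both libraries, and 0 of the microglia and macrophages carried one of them. Differences between the clusters are descriptions, since the authors formed the clusters from the gene counts of the same cells.

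The clusters differed in depth in the same order in both libraries: Microglia_2 cells held the most UMIs, Microglia_1 cells fewer and Macrophages the fewest. In Microglia_1 the WT cells had a median of 4087 UMIs per cell (quartiles 3216.5 and 5018.5, range 893 to 9902, 243 cells). The L151 cells of this cluster had a median of 3706 UMIs (3132.5 and 4355, range 869 to 7294, 251 cells). In Microglia_2 the medians were 6760.5 UMIs in WT (5702 and 8190.2, range 2021 to 13510, 56 cells) and 6415 in L151 (4871 and 7528, range 2024 to 12718, 51 cells). The median of Microglia_2 was thus 1.65 times that of Microglia_1 in WT and 1.73 times in L151. When 1 cell was drawn from each cluster, the Microglia_2 cell had more UMIs in 89.2% of the pairs in WT and in 89.9% in L151, so that the clusters overlapped.

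Macrophages were the shallowest and the most uneven of the clusters. WT macrophages had a median of 2175 UMIs (quartiles 990.2 and 4871.5, range 454 to 6039, 26 cells) and L151 macrophages 1389.5 (907.5 and 2622.5, range 521 to 5533, 22 cells). Of the 48 cells, 28 had fewer than 1000 genes, 10 had 1000 to 2000 genes and 10 had at least 2000. The deep cells had a median of 5589 UMIs and the shallow ones of 951.5. Fewer than 500 genes were found in 8 macrophages (16.7%, exact 95% interval 7.48 to 30.2%) and in 6.26% of all cells of the vHPC. Of the 601 microglia 0 were that shallow, which allows a share of up to 0.499% when 3 cells are taken as the limit of a count of 0, and their lowest gene number was 541. The lowest macrophage had 346 genes, close to the minimum of 320 genes that the authors required.

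**Figure D1:**
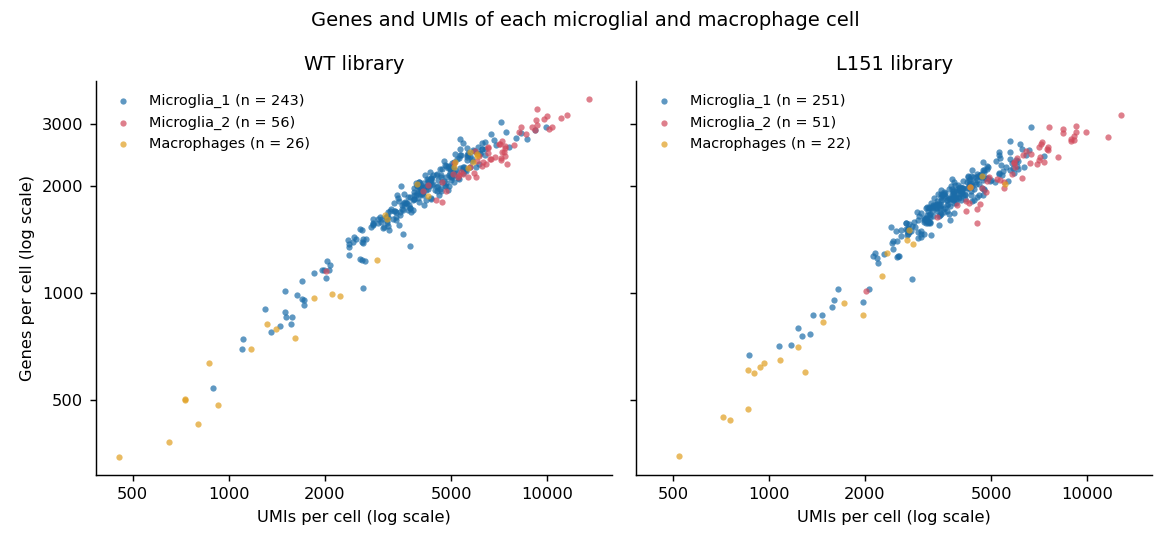
Genes per cell against UMIs per cell, both on log scales, for every cell of Microglia_1 (blue), Microglia_2 (red) and Macrophages (yellow) in the WT (left) and L151 (right) libraries. Macrophages reach down to 346 genes, and between 5000 and 6000 UMIs the Microglia_2 median (2171 genes) lies below that of Microglia_1 (2301), with overlapping cells.

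Gene numbers followed the same order. The median was 1969 genes per cell in WT and 1852 in L151 for Microglia_1, 2438.5 and 2350 for Microglia_2, and 990.5 and 767.5 for Macrophages. At least 2000 genes were found in 83.2% of Microglia_2 cells, 38.1% of Microglia_1 cells and 20.8% of Macrophages over both libraries. In all cells of the vHPC this share was 50.7%. The number of genes per UMI, which falls as a cell is read more deeply, was 0.480 in the median WT cell and 0.496 in the median L151 cell of Microglia_1, 0.362 and 0.370 in Microglia_2, and 0.517 and 0.550 in Macrophages. The order of this ratio was therefore the inverse of the order in UMIs.

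In narrow windows of depth Microglia_2 cells had a lower median number of genes than Microglia_1 cells, although they had more genes over all cells. With both libraries pooled, the quartiles overlapped. Between 5000 and 6000 UMIs, the Microglia_2 cells of both libraries had a median of 2171 genes (quartiles 2125.5 and 2286.8, 20 cells) and the Microglia_1 cells of 2301 (2190 and 2445, 61 cells), with median depths of 5563.5 and 5418 UMIs. Between 6000 and 7000 UMIs the medians were 2396 (17 cells) and 2541 genes (23 cells). In WT alone the quartiles of this window did not overlap, with 2352.5 and 2461.5 (11 cells) against 2480.5 and 2637 (14 cells). The windows of 1000 UMIs were chosen after the data were seen. In the wider window of 4000 to 8000 UMIs the order was turned, with 2352.5 and 2176.5 genes in WT, but there the Microglia_2 cells were also deeper, with median depths of 6253 and 4943 UMIs. Cells could not be thinned to a common number of UMIs, which needs counts per gene.

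Macrophages and Microglia_1 cells could be set side by side only in wide windows. Between 1000 and 2000 UMIs Macrophages had a median of 794 genes (11 cells, median depth 1408 UMIs), against 883 in Microglia_1 (29 cells, 1512 UMIs). Between 4000 and 8000 UMIs the 11 macrophages had a median of 2262 genes at 5533 UMIs and the 217 Microglia_1 cells of 2147 at 4793 UMIs. The cluster with the higher median depth had the higher median gene number in either window. Among the other non-neuronal cells, astrocytes had a median of 768.5 genes between 1000 and 2000 UMIs (590 cells, 1430 UMIs), oligodendrocytes of 725 (39 cells, 1446 UMIs) and endothelial cells of 982 (65 cells, 1551 UMIs).

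All 3 clusters held few mitochondrial UMIs. The median mitochondrial content of Microglia_1 was 1.30% of a cell's UMIs in WT (quartiles 0.868 and 1.89%) and 1.33% in L151 (0.836 and 1.90%). In Microglia_2 it was 2.21% in WT (1.44 and 2.94%) and 2.11% in L151 (1.39 and 2.75%). Macrophages had 2.56% in WT (1.97 and 4.14%) and 3.19% in L151 (1.70 and 4.79%). Of the 33 clusters of the vHPC, only Neu_CA1_2 had a lower median than Microglia_1 in either library, and 3 clusters lay below Microglia_2 in each. Below Macrophages lay 4 clusters in WT and 7 in L151. Pericytes were above Macrophages in WT, with 2.84%, and below them in L151, with 2.95%. Astrocytes had 7.28% in WT and 7.31% in L151, oligodendrocytes 4.44% and 4.45%, and endothelial cells 3.41% and 3.34%.

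**Figure D2:**
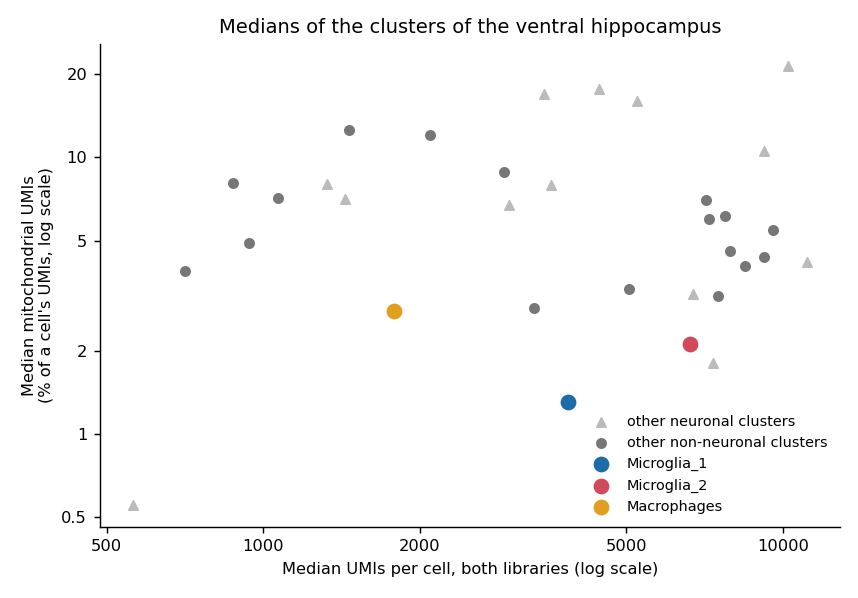
Median mitochondrial content against median UMIs per cell, both on log scales, of the clusters of the vHPC over both libraries. Microglia_1 (1.31%), Microglia_2 (2.11%) and Macrophages (2.79%) lie at the lower edge, and 1 neuronal cluster lies below Microglia_1.

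Counted in molecules, a Microglia_1 cell held a median of 55 mitochondrial UMIs in WT and 50 in L151, a Microglia_2 cell 143 and 136, and a macrophage 78 and 48. Fewer than 1% mitochondrial UMIs were found in 163 of 494 Microglia_1 cells (exact 95% interval 28.9 to 37.3%), 9 Microglia_2 cells (8.41%, 3.92 to 15.4%) and 5 Macrophages (10.4%, 3.47 to 22.7%). In all cells of the vHPC this share was 6.79%.

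The relation of mitochondrial content to depth differed between the clusters. Within Microglia_2, cells with more UMIs had a higher percentage, with a Pearson's r of 0.51 and a Spearman's rho of 0.53 in WT (56 cells) and of 0.48 and 0.59 in L151 (51 cells). These cells share a library, and the UMI number is also the denominator of the percentage. In Microglia_1 the rank correlation was 0.02 in WT and 0.13 in L151. With both libraries pooled, the median of Microglia_2 lay above that of Microglia_1 in each window of 1000 UMIs that held both. Between 4000 and 5000 UMIs the medians were 1.42% and 1.30%. They were 1.62% and 1.52% between 5000 and 6000 UMIs, and 1.81% and 1.48% between 6000 and 7000 UMIs. In WT alone the medians were 1.62% and 1.45% between 5000 and 6000 UMIs, and 1.44% and 1.34% between 6000 and 7000 UMIs. In L151 alone only the window of 4000 to 5000 UMIs held both. There the order was reversed, with 1.13% in Microglia_2 (11 cells) and 1.37% in Microglia_1 (63 cells). Whether depth accounts for the difference between the clusters was not tested. Between 7000 and 8000 UMIs the 22 Microglia_2 cells had 2.72%. In Macrophages the rank correlation was -0.33 in WT (26 cells) and -0.40 in L151 (22 cells). The 28 macrophages with fewer than 1000 genes had a median of 4.10%. Those with 1000 to 2000 genes had 2.01% (10 cells) and those with at least 2000 genes 2.34% (10 cells). Microglia_1 had medians of 3.03% (25 cells), 1.17% (281 cells) and 1.39% (188 cells) in the same ranges. The shallowest cells thus had the highest median in both clusters.

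**Figure D3:**
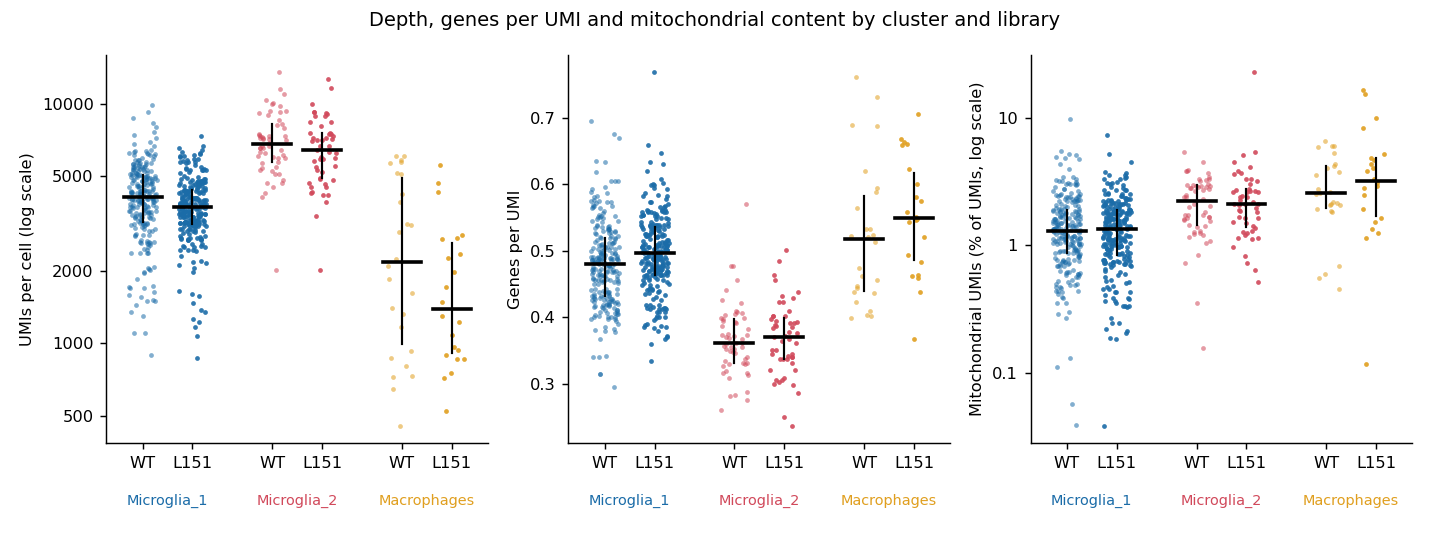
UMIs per cell (log scale), genes per UMI and mitochondrial percentage (log scale) of each cell by cluster and library. Each point is 1 cell, the thick bar is the median and the thin line spans the quartiles. Microglia_2 has the highest UMIs and the lowest genes per UMI, and Macrophages the lowest UMIs, in both libraries.

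More than 10% mitochondrial UMIs were found in 3 cells, all from the L151 library, and in 0 of the 325 WT cells, which allows a share of up to 0.923% by the same limit of 3 cells. In all cells of the vHPC this share was 29.8% in WT and 29.7% in L151. Of the 3 cells, the Microglia_2 cell had 22.7% of 11592 UMIs, and both macrophages were shallow, with 15.3% of 719 and 16.4% of 755 UMIs. Summed over cells, mitochondrial UMIs made up 2.42% of the Microglia_2 UMIs in WT (exact 95% interval 2.38 to 2.47%) and 3.104% in L151 (3.05 to 3.16%). Without the 1 cell the L151 value was 2.40%. In Macrophages the sums gave 2.52% in WT (2.41 to 2.64%) and 3.50% in L151 (3.33 to 3.68%), and 3.06% in L151 without the 2 cells. These intervals and those of all shares cover counting error only, and here count UMIs of the same cell as independent.

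The doublet score, which is deposited without a statement of its scale, differed between the clusters. In Microglia_1 its median was 0.723 in WT (quartiles 0.591 and 0.958) and 0.659 in L151 (0.547 and 0.835). In Microglia_2 it was 1.45 in WT (1.36 and 1.57) and 1.44 in L151 (1.22 and 1.57). In Macrophages the median was 0 in both libraries, as it was in 10 other clusters in each. Over all cells of the vHPC the score was 0 in 26.5%. The score was exactly 0 in 21 of 26 WT and 22 of 22 L151 macrophages, and a score above 0 in 0 of 22 cells allows a share of up to 13.6% by that limit. In Microglia_1 it was 0 in 28 of 243 and 27 of 251 cells, and in Microglia_2 in 5 of 56 and 9 of 51.

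The 5 macrophages with a score above 0 were all WT cells and all deep, with 5139 to 6039 UMIs and 2252 to 2464 genes. Their scores were 1.85, 2.24, 2.38, 2.38 and 2.73, against a highest score of 2.98 in the whole table, which 50 cells share, 3 of them microglia. Of the macrophages, 7 WT cells (26.9%) and 1 L151 cell (4.55%) had more than 5000 UMIs, against 46.7% and 43.5% of all cells of the vHPC. Few L151 macrophages thus reached the depth of these 5 cells. Zeros were more frequent in shallow cells. With fewer than 1000 genes the score was 0 in 24 of 25 Microglia_1 cells, 28 of 28 Macrophages and 86.9% of the 1829 cells of the other 30 clusters. With 1000 to 2000 genes it was 0 in 10 of 10 Macrophages, 29 of 281 Microglia_1 cells, 7 of 18 Microglia_2 cells and 23.1% of the other cells. With at least 2000 genes it was 0 in 5 of 10 Macrophages, 2 of 188 Microglia_1 cells, 7 of 89 Microglia_2 cells and 2.04% of the other cells. The Microglia_1 cells at 0 had a median of 1726 UMIs in WT, and the others of 4244.

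**Figure D4:**
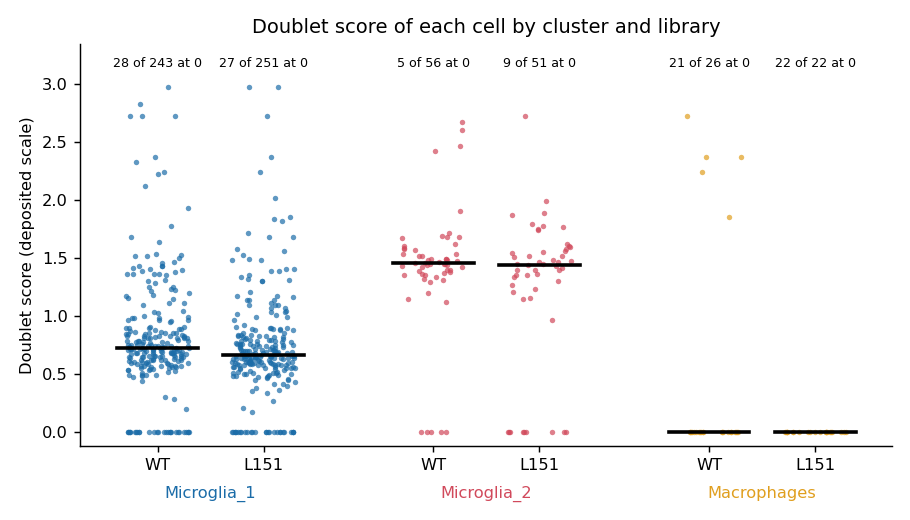
Doublet score of each cell by cluster and library, with the median as a bar and the number of cells at exactly 0 above each column. The Microglia_2 medians are 1.45 and 1.44, the Microglia_1 medians 0.723 and 0.659, and 43 of 48 Macrophages lie at 0.

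Microglia and macrophages made up 8.01% of WT cells (325 cells, exact 95% interval 7.20 to 8.89%) and 7.33% of L151 cells (324 cells, 6.58 to 8.13%). The share in L151 divided by that in WT was 0.914 (0.781 to 1.07). Of the non-neuronal cells they were 12.1% in both libraries (10.9 to 13.4% in each). Microglia_1 made up 5.99% of WT cells (5.28 to 6.77%) and 5.68% of L151 cells (5.01 to 6.40%), a ratio of 0.947 (0.791 to 1.13). Microglia_2 made up 1.38% (1.04 to 1.79%) and 1.15% (0.860 to 1.51%), a ratio of 0.835 (0.560 to 1.24). Macrophages made up 0.641% (0.419 to 0.938%) and 0.498% (0.312 to 0.752%), with a ratio of 0.776 (0.419 to 1.42). Each interval included 1. It was widest for Macrophages, with 48 cells.

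Within these cells the libraries were divided over the clusters in a like manner. Microglia_1 held 74.8% of them in WT (69.7 to 79.4%) and 77.5% in L151 (72.5 to 81.9%), Microglia_2 17.2% (13.3 to 21.8%) and 15.7% (12.0 to 20.2%), and Macrophages 8.0% (5.29 to 11.5%) and 6.79% (4.30 to 10.1%).

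**Figure D5:**
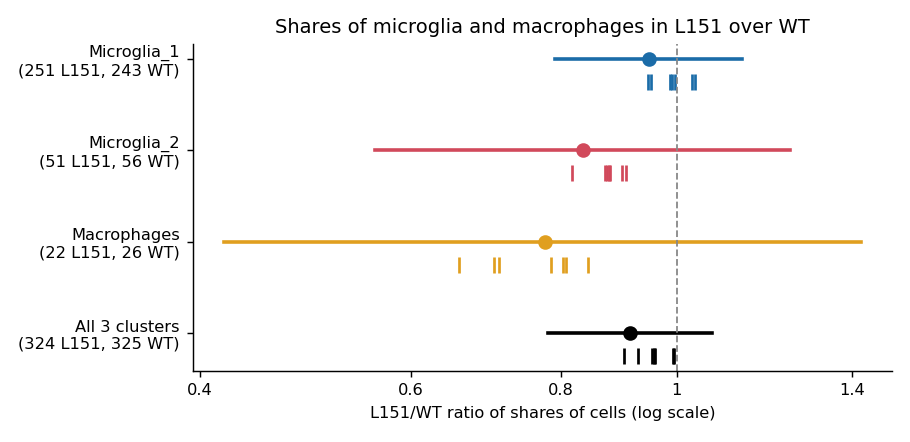
Share of cells in L151 divided by that in WT (log axis). Lines span the 95% counting intervals, with values under other filters and denominators as ticks below each. The ratios are 0.947 for Microglia_1, 0.835 for Microglia_2, 0.776 for Macrophages and 0.914 for all 3 clusters, and each interval includes 1.

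The median number of UMIs was lower in L151 than in WT in each cluster. The interval of the ratio excluded 1 only in Microglia_1, the cluster with the most cells. The L151/WT ratio of median UMIs was 0.907 in Microglia_1 (0.824 to 0.973), 0.949 in Microglia_2 (0.787 to 1.15) and 0.639 in Macrophages (0.213 to 2.31). These intervals cover the number of cells and not the spread between mice, so that they cannot tell a genotype from a library. The ratio of median genes was 0.941 in Microglia_1 (0.889 to 0.9995), 0.964 in Microglia_2 (0.822 to 1.07) and 0.775 in Macrophages (0.295 to 1.97). The upper bound in Microglia_1 lay just below 1. The cells of the libraries overlapped widely. In pairs of 1 L151 and 1 WT cell, the L151 cell had fewer UMIs in 58.5% of the pairs in Microglia_1, 56.9% in Microglia_2 and 61.2% in Macrophages. Lower medians in L151 were also found elsewhere: of the 26 other clusters with at least 25 cells of each genotype, 17 had fewer median UMIs in L151 and 10 had a lower ratio than Microglia_1, and the median ratio over the 26 was 0.941. The ratio was 0.921 in astrocytes, 0.896 in oligodendrocytes and 1.03 in endothelial cells.

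In Microglia_1 the gap widened toward the deep cells, with upper quartiles of 5018.5 UMIs in WT and 4355 in L151 and lower quartiles of 3216.5 and 3132.5. More than 5000 UMIs were found in 63 of 243 WT cells (25.9%, 20.5 to 31.9%) and 30 of 251 L151 cells (12.0%, 8.21 to 16.6%). In all cells of the vHPC this share was 46.7% in WT and 43.5% in L151. Fewer than 1000 genes were found in 14 WT (5.76%) and 11 L151 (4.38%) cells of Microglia_1. This share was thus lower in L151, whereas in all cells it was higher, with 19.19% in WT and 24.97% in L151. In windows of 1000 UMIs, chosen after the data were seen, the gene numbers of the libraries differed without a constant direction. Between 2000 and 3000 UMIs Microglia_1 cells had a median of 1416 genes in WT (29 cells) and 1474.5 in L151 (38 cells). Between 3000 and 4000 UMIs the medians were 1769.5 (66 cells) and 1778.5 (108 cells), and between 4000 and 5000 UMIs 2042 (66 cells) and 2045 (63 cells). Between 5000 and 6000 UMIs they were 2325 (41 cells) and 2287.5 (20 cells). In Macrophages, at least 2000 genes were found in 8 WT cells and 2 L151 cells (30.8%, 14.3 to 51.8%, and 9.09%, 1.12 to 29.2%). Over all cells of the vHPC this share was 52.4% in WT and 49.2% in L151.

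Median genes per UMI were higher in L151 in each cluster, beside the lower UMI numbers given above. The L151/WT ratios were 1.03 in Microglia_1 (1.001 to 1.07), 1.02 in Microglia_2 (0.919 to 1.12) and 1.06 in Macrophages (0.858 to 1.402). The intervals cover the number of cells and not the spread between mice. Of the 26 other clusters with at least 25 cells of each genotype, 9 had a ratio below 1, and the median ratio over the 26 was 1.02. For mitochondrial content the ratios were 1.02 (0.811 to 1.26), 0.954 (0.595 to 1.56) and 1.25 (0.404 to 2.32), so that each interval included 1. In pairs of cells the L151 macrophage had the higher mitochondrial percentage in 57.0% and the L151 Microglia_1 cell in 49.4%. The median doublet score differed between the libraries (L151 minus WT) by -0.0646 in Microglia_1 (-0.122 to 0.00566) and by -0.0133 in Microglia_2 (-0.139 to 0.0889), and both intervals included 0.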

How the data were processed

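Dissociated vHPC cells were sequenced with 10x Genomics 3' chemistry. The authors used Cell Ranger 3.0.2 on mm10 and Seurat 3.1.3, as the submitters' processing notes name them, and excluded 1 of 2 samples per genotype, which left 1 mouse each. They kept droplets with 320 to 5000 genes and up to 25% mitochondrial content, discarded blood cells and, with scran, doublets, and named the clusters by marker genes. The deposited counts are UMIs per cell over all genes, not normalized. The deposited percent values give the mitochondrial part of a cell's UMIs, and multiplied by the UMIs they were whole within 1e-06 in all 8477 cells. The deposited doublet score has no stated scale.

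Medians, quartiles, shares with exact Clopper-Pearson 95% intervals, ratios of shares, pairwise comparisons of cells and medians in windows of UMIs (windows with under 10 cells left out) were computed with Python 3.11.15, numpy 2.4.6, pandas 2.3.3 and scipy 1.17.1. For a ratio of shares the interval was derived from that of the fraction of L151 cells in the cluster. For medians it was read from the order statistics of the cells, and for a ratio or difference of medians from the outer bounds of both. The intervals of shares, of ratios of shares and of single medians were checked on simulated data. Those of ratios and differences of medians were not checked in this way. Figures were drawn with matplotlib 3.10.9. All measured columns of the table were used. The clusters and measures were chosen with earlier results of these data known. Clusters other than Microglia_1, Microglia_2 and Macrophages are named only where they border them in an order of medians, and the 3 largest other non-neuronal types were set beside them. The score, planned as a ratio between libraries, was compared as a difference, a choice made after seeing the data, since its scale is not given. Alternatives were at least 500 or 1000 genes, at least 1000 UMIs, at most 10% mitochondrial UMIs, removal of the 5% of cells with the highest doublet score, other denominators, means in place of medians and other windows.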

Additional observations from a re-analysis of the deposited data

Results flagged for a closer look

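The L151/WT ratio of the median mitochondrial content was above 1 in Microglia_1 (1.02, 0.811 to 1.26) and Macrophages (1.25, 0.404 to 2.32) and below 1 in Microglia_2 (0.954, 0.595 to 1.56). Each interval, which covers the number of cells only, included 1. The difference between the clusters was not tested, since each genotype has 1 library. The directions of both microglial clusters turned in 1 alternative each: with means in place of medians the ratio was 0.951 in Microglia_1 and 1.17 in Microglia_2. The mean of Microglia_2 includes the L151 cell with 22.7% mitochondrial UMIs.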

How the results depend on the processing

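No paired analysis was possible because each genotype has 1 library and no result comes from a test. For the same reason no library could be left out. Of 212 values recomputed under an alternative, 195 stayed within the interval of the value reported. This count includes alternatives that removed no cell of a cluster and so could not change its medians. For ratios and differences of medians the interval joins the outer bounds of both 95% intervals, and it is wide where cells are few. In Microglia_2 the limits on genes and UMIs removed no cell, and the L151/WT ratio of median UMIs stayed at 0.949 under each. The Microglia_2/Microglia_1 ratio of median genes in a window left its interval in 5 of 5 alternatives. All 28 ratios of shares stayed within their intervals. The ratio of shares of Microglia_1 exceeded 1 in 2 of 7 alternatives and reached 1.04, and those of Microglia_2 (0.818 to 0.907) and Macrophages (0.658 to 0.843) stayed below 1. The ratio of median UMIs stayed below 1 in each alternative, from 0.546 to 0.737 in Macrophages.

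With at least 1000 genes per cell, Macrophages made up 4.04% of the microglia and macrophages in WT and 2.68% in L151. With means in place of medians, mitochondrial content was 1.54% in WT Microglia_1 and 2.64% in L151 Microglia_2, and the doublet score was 0.811 and 0.733 in WT and L151 Microglia_1, 1.41 and 1.25 in Microglia_2, a difference (L151 minus WT) of -0.16, and 0.445 in WT Macrophages, a difference of -0.445. The median score of WT Macrophages without cells at 0, an alternative added after the data were seen, was 2.38. The Microglia_2/Microglia_1 ratio of median genes was 1.08 in both libraries between 4000 and 8000 UMIs, and 1.16 in WT and 1.22 in L151 between 3000 and 9000 UMIs. In windows of 1000 UMIs, chosen after the data were seen, it was below 1, with 0.892 in L151 between 4000 and 5000 UMIs and, in WT, 0.933 between 5000 and 6000 and 0.939 between 6000 and 7000. The wide windows hold cells of unequal depth.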
